A study of Homo sapiens with 12 samples.

Results

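The human bladder cancer cell lines 5637 and RT112 were compared after treatment with CM272, in 3 arrays of treated 5637 and 3 arrays of treated RT112, 6 of the series' 12 arrays. CM272 inhibits both the histone methyltransferase G9a and DNA methyltransferases, and each line received it at its IC50; the sources used here give no concentration in figures and no duration. Both are established lines from bladder carcinomas, grown in the same medium, and the labels state no further alleles or agents. Untreated RT112 (3 arrays) is shown only as a reference level, and the 3 untreated 5637 arrays were left out because their values are displaced from their rows (r with treated 5637 at most 0.0278). Without an untreated 5637 level, a difference that the lines had before treatment and a difference in their response to CM272 cannot be told apart. The labels number the replicates but name no separate cultures, so p-values reflect only how far these arrays spread, which may be a technical spread.

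The members were all 22411 genes that the platform annotation ties to rows with exactly 1 symbol, each read from its brightest row over the 6 arrays. A value is the deposited log2 level, and a difference is the mean of treated 5637 minus the mean of treated RT112. A gene was called where limma gave an adjusted p under 0.05 and the difference was at least 1 on the log2 scale, which is 2-fold. The median array level averaged 4.34 in treated 5637, 4.38 in treated RT112 and 5.03 in untreated RT112. A group mean at or below its own median level was taken as near background, and a difference against it is then a lower bound. The reference arrays' higher median applies to every reference level below.

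The urothelium that lines the bladder is a layered epithelium. Its basal cells carry keratins such as KRT5 and KRT14, and its luminal cells depend on the factors GATA3, PPARG and FOXA1 and make uroplakins, the plaque proteins of the bladder surface. Bladder cancers and their lines range from such luminal states through basal and squamous ones to states with mesenchymal genes, in which N-cadherin, vimentin and matrix proteins are made.

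Treated 5637 and treated RT112 were set apart by matrix, protease, mesenchymal and cytokine genes on the 5637 side and by detoxifying enzymes, secreted epithelial proteins and luminal genes on the RT112 side. Of 22411 genes, 907 were called higher in 5637 (4.05% of those tested) and 635 lower (2.83%), in all 6.88%. The median difference of all genes was -0.01. Differences of at least 4-fold were called for 223 genes higher and 135 lower, and of at least 32-fold for 12 higher and 19 lower. In all 1542 called genes the arrays of the lines did not overlap, which was also true of 21.3% of all genes in the higher and 21.7% in the lower direction. The lower level was near background for 66 genes called higher and 56 called lower. Each gene list below is given with its counts and its median difference, to be read beside 4.05%, 2.83% and -0.01.

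Replicate arrays correlated at r = 0.9936 to 0.9944 within treated 5637 and 0.9905 to 0.9916 within treated RT112, and arrays of the different treated lines at 0.9602 to 0.9644. The deposited treated arrays hold many exact ties: 3436 genes had 3 equal values in treated 5637 and 2725 in treated RT112, and 212 called genes had such a group, whose SD of 0 makes its p too small. Of 23 leukocyte markers, 0 were called by limma in either direction, with 0 past an adjusted p of 0.05 upward and 2 downward. Their group means ran from 3.28 to 6.66 in treated 5637 and from 3.35 to 7.12 in treated RT112, 16 of the 23 were near background in both lines, and PTPRC, which encodes the leukocyte antigen CD45, stood at 3.61 and 3.67. The epithelial surface gene EPCAM read 10.23, 10.37 and 10.34 in treated 5637 against 9.95, 10.21 and 9.95 in treated RT112, a difference of 0.28 ± 0.09 (SE) that missed the threshold (adjusted p = 0.0791).

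**Figure D1:**
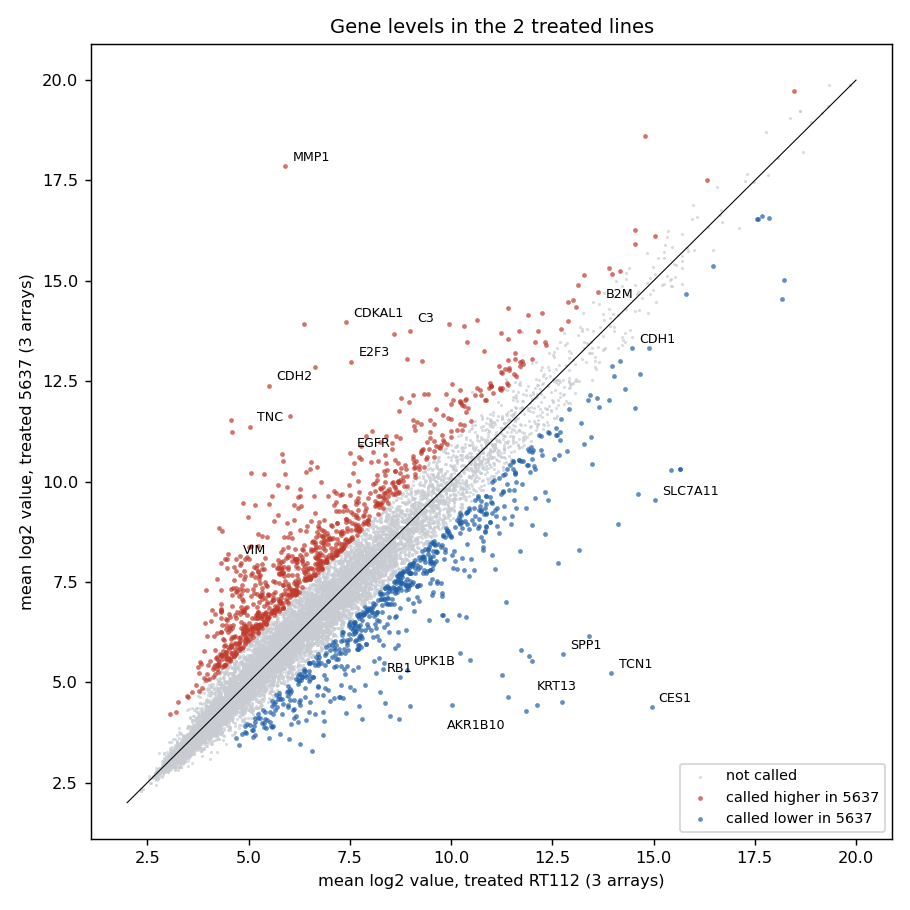
Each point is 1 gene, with its mean log2 level over 3 arrays of treated RT112 on the horizontal axis and of treated 5637 on the vertical axis, and the line marks equal levels. Red points (907) were called higher and blue points (635) lower in treated 5637, and MMP1 and CES1 lie farthest from the line on either side.

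Several of the 30 greatest differences belonged to none of the lists. STC1, for the hormone stanniocalcin, read 12.97, 12.74 and 12.82 in treated 5637 and 6.61, 6.60 and 6.73 in treated RT112, with 4.69 in untreated RT112 (6.20 ± 0.07, adjusted p = 6.12e-06). MSN, for moesin, which links membrane proteins to actin, read 10.47, 10.56 and 10.47 against 5.49, 5.87 and 6.16 (4.66 ± 0.18, adjusted p = 0.000105). The gap junction gene GJA1, for connexin 43, was higher by at least 4.55 ± 0.18, and PRTFDC1, a relative of the purine salvage enzyme HPRT, and the transporter gene SLC43A3 by 5.16 ± 0.10 and 4.79 ± 0.08. In treated RT112 all of these except STC1 lay within 1.5 log2 units of the array median.

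Lower in treated 5637 were ABCA12, the lipid transporter of the skin barrier, which read 5.49, 5.57 and 5.57 against 11.91, 12.26 and 11.88 (-6.47 ± 0.11, adjusted p = 1.77e-05), and the serine protease gene KLK6, which read 5.69, 5.66 and 5.60 against 12.02, 11.84 and 11.91 (-6.28 ± 0.05). ANXA10, an annexin gene of gastric and urothelial epithelia, read 4.50, 4.32 and 4.50 against 10.33, 9.93 and 9.82 (-5.59 ± 0.15). In untreated RT112 all 3 were expressed too, at 11.86, 14.18 and 11.61.

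Of 28 measured members of the luminal list, 8 were called lower in treated 5637, 0 higher and 20 neither, and the list's median difference was -0.53. At an adjusted p under 0.05 alone, limma gave 20 lower and 2 higher. UPK1B, which encodes a uroplakin, read 5.33, 5.24 and 5.33 in treated 5637 and 8.83, 8.90 and 8.97 in treated RT112, against a mean of 9.90 in untreated RT112. The arrays of the lines lay far apart, and the difference was -3.60 ± 0.05 (SE, adjusted p = 8.74e-06). The uroplakin gene UPK2 differed by -1.29 ± 0.07 and the grainyhead factors GRHL3 and GRHL2, regulators of epithelial barrier genes, by -2.03 ± 0.03 and -1.28 ± 0.03. FOXA1 read 5.19, 5.32 and 5.32 against 6.09, 6.42 and 6.6, a difference of -1.09 ± 0.14 (adjusted p = 0.00426) that became -0.98, short of 2-fold, without RT112 replicate 3. KRT19, a simple-epithelium keratin, differed by -1.02 ± 0.09 and was no longer 2-fold lower with centred arrays (-0.97).

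The other luminal master genes did not reach the 2-fold minimum. GATA3 read 7.57 in all 3 arrays of treated 5637 and 8.56, 8.48 and 8.35 in treated RT112, a difference of -0.89 ± 0.06 (adjusted p = 0.000461). PPARG went the other way, by 0.56 ± 0.04 (adjusted p = 0.00042). KRT20, a keratin of the outermost umbrella cells, lay at 3.57 to 3.67 in treated 5637 and 3.67 to 4.18 in treated RT112, near background in both.

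Basal and squamous genes moved in both directions, with 4 of 26 called higher, 5 lower and a median of -0.16. KRT13, a keratin of the intermediate layers and the gene of the list with the greatest difference, read 4.53, 4.54 and 4.43 in treated 5637 and 12.83, 12.60 and 12.80 in treated RT112, where the untreated mean was 15.77. That is -8.24 ± 0.08 (adjusted p = 3.37e-06), with the 5637 level close to the array median. KRT14 read 4.57, 4.66 and 4.66 against 7.16, 7.23 and 7.29, a difference of -2.60 ± 0.05. KRT5 was abundant in both lines, at 12.04 in every array of treated 5637 and 13.79 to 13.99 in treated RT112, and differed by -1.87 ± 0.06. TRIM29, often used as a basal and squamous marker, was lower by a difference of -3.13 ± 0.13.

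On the other side of the list, EGFR, the epidermal growth factor receptor gene, read 10.59, 10.78 and 10.78 in treated 5637 and 7.5, 7.62 and 7.38 in treated RT112. The difference was 3.22 ± 0.09 (adjusted p = 4.54e-05), and untreated RT112 stood at 10.28, near the treated 5637 level. DSG3, a desmosomal cadherin gene of stratified epithelia, was higher by at least 2.62 ± 0.11, its RT112 level being near background, and the hyaluronan receptor gene CD44 by 1.09 ± 0.03.

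**Figure D2:**
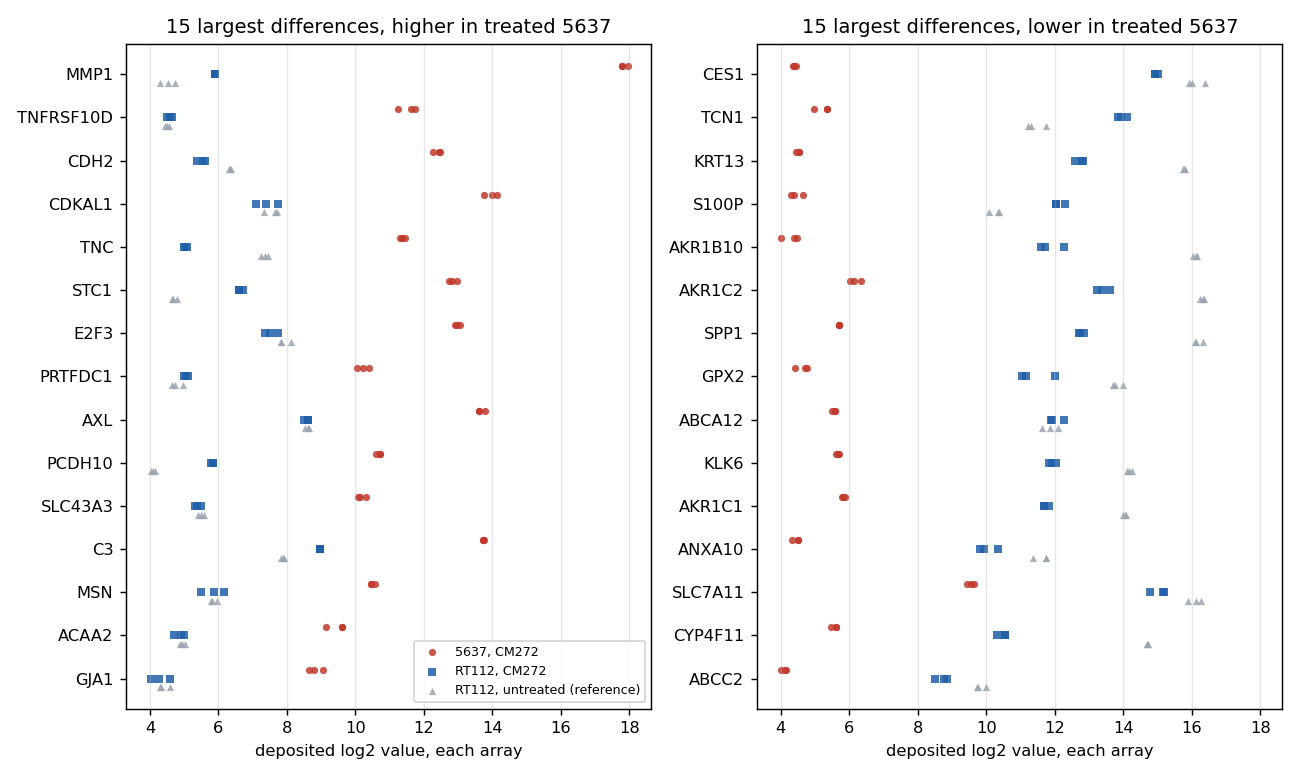
The deposited log2 level in each array is plotted for the 15 protein-coding genes with the greatest called differences in either direction, with red circles for treated 5637, blue squares for treated RT112 and grey triangles for untreated RT112. Only genes whose circles and squares do not overlap were eligible for the 30. For KRT13, AKR1B10, SPP1 and CYP4F11 treated RT112 lies between treated 5637 and untreated RT112.

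Of 27 mesenchymal genes, 8 were called higher in treated 5637, 1 lower and 18 neither, with a median of 0.32. CDH2, which encodes N-cadherin, read 12.26, 12.46 and 12.45 in treated 5637 and 5.56, 5.62 and 5.36 in treated RT112, a difference of 6.88 ± 0.09 (117.7-fold, adjusted p = 9.07e-06). AXL, a receptor tyrosine kinase gene, read 13.61, 13.80 and 13.62 against 8.62, 8.63 and 8.51, a difference of 5.09 ± 0.07 (adjusted p = 8.92e-06). Vimentin (VIM), the intermediate filament of mesenchymal cells, read 8.01, 8.10 and 8.06 against 4.68, 4.78 and 4.62, a difference of 3.37 ± 0.05. In all 3 genes the treated and untreated RT112 means lay within 0.83 of each other, untreated RT112 reading 6.34, 8.60 and 4.68.

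The transcription factors of the mesenchymal list did not follow that direction as a group. ZEB1 differed by 0.01 ± 0.11 (adjusted p = 1.0), at 5.18 to 5.36 in treated 5637 and 5.06 to 5.44 in treated RT112, levels that overlapped. TWIST1, chosen after its values were seen, was higher by at least 1.02 ± 0.10, from a level near background in RT112. SNAI1, which encodes Snail, was lower, at 7.03, 6.89 and 6.92 against 8.61, 7.84 and 8.94, a difference of -1.52 ± 0.30 (adjusted p = 0.0171). Its untreated RT112 mean was 3.92, and its adjusted p ran from 0.0577 to 0.0667 with any single 5637 array or RT112 replicate 1 left out.

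Of 31 junction genes of epithelia, 8 were called lower in treated 5637, 2 higher and 21 neither, with a median of -0.39. CDH1, which encodes E-cadherin, remained an abundant transcript in both lines, at 13.30, 13.33 and 13.33 in treated 5637 and 14.42, 14.50 and 14.51 in treated RT112, a difference of -1.16 ± 0.03 (adjusted p = 3.89e-05). The E-cadherin partner gene CTNNB1, for beta-catenin, differed by -1.55 ± 0.10, and the desmosomal plakophilin genes PKP1 and PKP2 by -2.01 ± 0.05 and -1.27 ± 0.13. ESRP1 and ESRP2, splicing regulators that keep epithelial isoforms, differed by -1.99 ± 0.10 and -1.28 ± 0.07. Against this direction stood the tight-junction gene CLDN7 (1.27 ± 0.09) and the desmosomal cadherin gene DSC2, which read 8.11, 8.46 and 8.05 against 4.49, 4.36 and 4.64 (3.71 ± 0.14, adjusted p = 9.97e-05).

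Among integrins and other adhesion molecules 5 of 34 were called higher and 2 lower, with a median of 0.00. ICAM1, the ligand on target cells for leukocyte integrins, read 10.96, 11.24 and 11.19 in treated 5637 and 7.95, 7.72 and 8.0 in treated RT112, with 5.29 in untreated RT112. The difference was 3.24 ± 0.11 (adjusted p = 8.14e-05). MCAM, a cell adhesion molecule of the immunoglobulin family, differed by 3.39 ± 0.13, and the integrin genes ITGB8, ITGA1 and ITGA2 by 1.54 ± 0.03, 1.39 ± 0.03 and 1.17 ± 0.05. TSPAN7, a tetraspanin gene, differed by -3.90 ± 0.15.

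Protocadherins, cadherin relatives that mediate contact between like cells, were read after their values were seen. PCDH10 read 10.73, 10.73 and 10.61 in treated 5637 and 5.83, 5.79 and 5.83 in treated RT112, a difference of 4.88 ± 0.04 (adjusted p = 2.98e-06). PCDH18 was higher by at least 2.71 ± 0.14. PCDH17 went the other way, at 4.62, 4.66 and 4.63 against 7.63, 7.14 and 7.01, with 4.30 in untreated RT112 (-2.62 ± 0.17, adjusted p = 0.000469). In the beta cluster on chromosome 5, 7 of 15 measured genes were called higher and 0 lower by limma. Their differences ran from at least 1.41 for PCDHB16, near background in RT112, to 3.93 for PCDHB11. The other 8 were near background in both lines, which limits any difference that could be read. Of those 8, only PCDHB5 had an adjusted p under 0.05 (0.0377), with a difference of -0.36. Genes of the beta cluster are close copies of one another, so which of them differed is uncertain.

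Of 25 genes for secreted and surface proteins of mucosal epithelia, 8 were called lower in treated 5637, 2 higher and 15 neither, with a median of -0.28, and 9 were near background in both lines. TCN1, which encodes a vitamin B12-binding protein, read 4.96, 5.35 and 5.35 in treated 5637 and 14.10, 13.94 and 13.84 in treated RT112, a difference of -8.74 ± 0.14 (adjusted p = 1.31e-05). The calcium-binding protein gene S100P read 4.39, 4.64 and 4.29 against 12.04, 12.03 and 12.29, a difference of -7.68 ± 0.12. For both, treated RT112 stood above untreated RT112, at 11.42 for TCN1 and 10.26 for S100P. S100A14 differed by -3.51 ± 0.15 and the antiprotease gene SLPI, abundant in both lines, by -1.99 ± 0.17, whereas LCN2, for the siderophore-binding lipocalin, was higher by 1.86 ± 0.16.

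Matrix genes gave the greatest share of called members in the higher direction among the 25 lists: 17 of 37 were called higher and 2 lower, with a median of 0.83. TNC, which encodes tenascin-C, read 11.31, 11.35 and 11.45 in treated 5637 and 4.99, 5.03 and 5.09 in treated RT112, a difference of 6.33 ± 0.05 (80.6-fold, adjusted p = 2.67e-06). Fibronectin (FN1) read 13.01, 13.06 and 12.97 against 9.24, 9.29 and 9.26, a difference of 3.75 ± 0.03. The reference level of untreated RT112 was 7.35 for TNC and 10.49 for FN1, above treated RT112 and below treated 5637.

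Basement membrane and microfibril genes were among them. NID1, for nidogen, was higher by at least 4.43 ± 0.08, LAMB1, a laminin chain, by 2.65 ± 0.12, and the fibrillin genes FBN1 and FBN2 by 3.16 ± 0.09 and 3.37 ± 0.11. SPARC, for a collagen-binding matricellular protein, was higher by 2.65 ± 0.05. The list also held the clearest exception, SPP1, which encodes osteopontin: it read 5.70 in all 3 arrays of treated 5637 and 12.86, 12.74 and 12.70 in treated RT112, with 16.18 in untreated RT112, a difference of -7.06 ± 0.04 (adjusted p = 1.46e-06). The proteoglycan gene LUM was the other member called lower (-2.48 ± 0.19). The list overlaps the markers of stromal and endothelial cells, of which 2 of 19 were called higher (COL1A1, 1.90 ± 0.05, and COL1A2, 1.02 ± 0.06) and 1 lower (LUM), with a median of 0.08; COL1A2 fell short of 2-fold after quantile normalization (0.96).

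Proteases that cut the matrix followed, with 11 of 29 called higher, 1 lower and a median of 0.59. MMP1, the interstitial collagenase, read 17.80, 17.80 and 17.95 in treated 5637 and 5.91 in every array of treated RT112, the greatest difference of all tested genes (11.94 ± 0.05, adjusted p = 2.67e-07). MMP10, for stromelysin-2, read 8.41, 8.83 and 8.63 against 5.44, 5.47 and 5.47, a difference of 3.16 ± 0.11. The urokinase gene PLAU and its receptor gene PLAUR were both higher, by 3.03 ± 0.14 and 1.94 ± 0.07. MMP13, for collagenase-3, was the member called lower: it read 8.27 in all 3 arrays of treated 5637 and 11.62, 11.95 and 11.57 in treated RT112, with 7.49 in untreated RT112 (difference -3.44 ± 0.11). MMP1 and MMP13 thus differed in opposite directions between the lines.

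**Figure D3:**
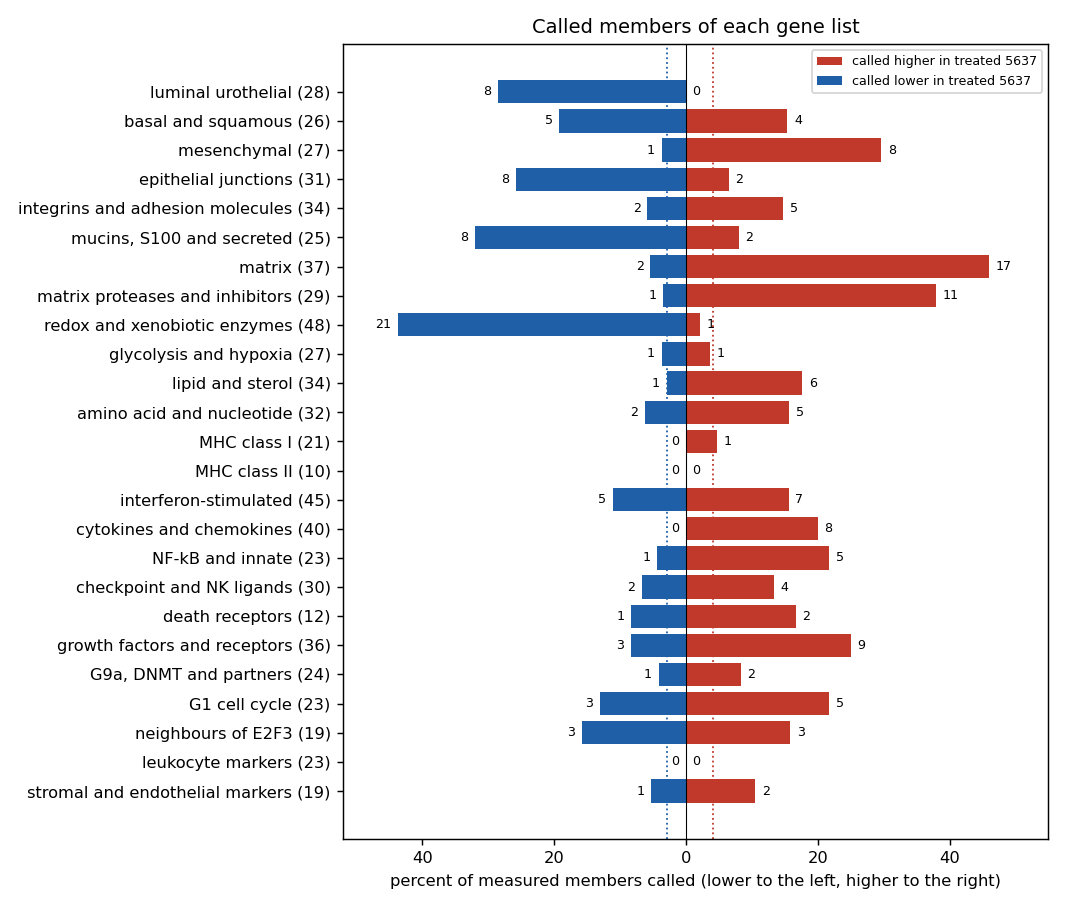
Bars give the percent of each list's measured members (number in brackets) called higher in treated 5637 to the right and lower to the left, with the count of genes at the bar's end. Dotted lines mark the shares over all genes, 4.05% higher and 2.83% lower, and the longest bars are the matrix list to the right (17 of 37) and the redox and xenobiotic list to the left (21 of 48).

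A group of detoxifying and redox enzymes was lower in treated 5637 than in treated RT112. Many such enzymes are known targets of the factor NRF2, which binds antioxidant response elements and turns on glutathione synthesis, quinone reduction and aldo-keto reductases. Of 48 measured members of the redox and xenobiotic list, 21 were called lower, 1 higher and 26 neither, with a median of -0.69. CES1, a carboxylesterase that hydrolyses ester drugs, read 4.44, 4.37 and 4.34 in treated 5637 and 14.92, 14.93 and 15 in treated RT112, a difference of -10.57 ± 0.04 (1516-fold, adjusted p = 2.22e-07). The treated 5637 arrays stood at about their median level, and no array of RT112 came near them.

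The aldo-keto reductases reduce aldehydes, ketones and steroids, and 6 members of the list, AKR1B10, AKR1B15 and AKR1C1 to AKR1C4, were called lower. AKR1A1 and AKR1B1, which are also on the list, are not among these 6. AKR1C3 read 6.97, 6.99 and 7.01 against 11.40, 11.37 and 11.31 (-4.37 ± 0.03, adjusted p = 1.46e-06), AKR1C1 differed by -5.92 ± 0.05 and AKR1C2 by -7.25 ± 0.13. AKR1B10 read 4.39, 4.01 and 4.46 against 11.72, 12.26 and 11.60, and its difference of -7.57 ± 0.22 is a bound on the size, since 5637 was near background. Untreated RT112 stood higher still, at 16.11 for AKR1B10, 14.03 for AKR1C1, 16.32 for AKR1C2 and 14.85 for AKR1C3. AKR1C1 and AKR1C2 are near-identical, so signal may be shared between them.

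Genes of glutathione and thioredoxin metabolism went the same way. GPX2, a glutathione peroxidase of epithelia, read 4.40, 4.70 and 4.75 in treated 5637 and 11.99, 11.17 and 11.05 in treated RT112 (-6.79 ± 0.29, adjusted p = 0.000138). SLC7A11, the cystine importer that feeds glutathione synthesis, was expressed in both lines, at 9.43, 9.55 and 9.65 against 15.19, 15.15 and 14.78 (-5.49 ± 0.13, adjusted p = 3.54e-05). The quinone reductase gene NQO1 read 11.68, 11.98 and 11.85 against 14.51, 14.54 and 14.55 (-2.70 ± 0.08). Beyond the 8 greatest of the list, and so chosen after their values were seen, TXNRD1, for thioredoxin reductase, differed by -2.01 ± 0.02 and GCLM, a subunit of glutamate-cysteine ligase, by -1.87 ± 0.18. The heme oxygenase gene HMOX1, another known NRF2 target, did not differ by 2-fold (-0.08), nor did GCLC (-0.73). Of the fatty acid hydroxylases CYP4F11 differed by -4.91 ± 0.09. The conjugate exporter gene ABCC2 differed by -4.62 ± 0.10, a bound on the size since 5637 was near background.

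The promoters of this list's genes called lower were searched for the core of the antioxidant response element, TGACNNNGC. The search covered both strands from 250 bases before to 50 after the start, in RefSeq sequence of GRCh38.p14. The 21 genes called lower had 16 promoters in the table, and 4 of these held the motif (25.0%), against 14.6% of 15374 promoters of all tested genes, 14.7% of those of genes called lower and 13.3% of those called higher. A match describes letters, not a bound site. The 250 bases before the start of those 4 genes are shown on the gene's strand with the match in capitals. Those 4 are the list's members called lower whose promoters hold the motif. A further TXNRD1 match spans the start site and is not shown.
GPX2, chr14:64942746-64942995, minus strand: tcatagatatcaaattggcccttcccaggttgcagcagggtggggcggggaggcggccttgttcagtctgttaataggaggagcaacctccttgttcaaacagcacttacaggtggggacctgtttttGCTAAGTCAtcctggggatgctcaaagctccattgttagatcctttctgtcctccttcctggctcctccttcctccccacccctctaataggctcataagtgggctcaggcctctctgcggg
CYP4F11, chr19:15934868-15935117, minus strand: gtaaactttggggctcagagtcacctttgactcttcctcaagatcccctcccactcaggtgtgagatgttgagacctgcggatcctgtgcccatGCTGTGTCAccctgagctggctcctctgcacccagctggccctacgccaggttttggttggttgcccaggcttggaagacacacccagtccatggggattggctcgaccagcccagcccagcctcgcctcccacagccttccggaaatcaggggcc
TXNRD1, chr12:104215529-104215778, plus strand: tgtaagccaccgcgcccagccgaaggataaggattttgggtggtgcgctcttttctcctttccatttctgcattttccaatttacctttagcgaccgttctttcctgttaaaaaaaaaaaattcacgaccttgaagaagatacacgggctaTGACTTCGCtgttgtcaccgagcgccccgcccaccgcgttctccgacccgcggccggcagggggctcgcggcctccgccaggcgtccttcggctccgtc
GCLM, chr1:93909431-93909680, minus strand: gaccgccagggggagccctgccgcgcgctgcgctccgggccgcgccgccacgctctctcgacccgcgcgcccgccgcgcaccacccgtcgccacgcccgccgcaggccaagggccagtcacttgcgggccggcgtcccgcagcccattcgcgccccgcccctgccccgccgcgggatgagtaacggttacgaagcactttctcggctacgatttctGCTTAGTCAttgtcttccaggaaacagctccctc

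Few genes of glycolysis reached the 2-fold minimum, though more were lower than higher at an adjusted p under 0.05 alone. By limma 14 of the 27 glycolysis and hypoxia genes were then lower and 3 higher, against 15.1% and 16.2% of all genes. Among glycolysis and hypoxia genes 1 of 27 was called higher (ADM, for adrenomedullin, 1.14 ± 0.10) and 1 lower (PGAM1, for phosphoglycerate mutase, -1.65 ± 0.14), with a median of -0.16. Among lipid and sterol genes 6 of 34 were called higher and 1 lower, with a median of 0.04. ABCA1, the cholesterol exporter, read 8.45, 8.42 and 8.35 in treated 5637 and 4.99, 5.09 and 5.10 in treated RT112 (3.35 ± 0.04, adjusted p = 8.83e-06). The lipid droplet gene PLIN2 differed by 2.38 ± 0.06 and the ATP-citrate lyase gene ACLY by 1.60 ± 0.07, while ACSL5, for an acyl-CoA synthetase, was lower (-1.59 ± 0.09). ACAA2, for the thiolase that ends mitochondrial beta-oxidation and among the 15 greatest differences of all, read 9.15, 9.62 and 9.61 against 4.99, 4.92 and 4.71 (4.59 ± 0.16).

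Among amino acid and nucleotide genes 5 of 32 were called higher and 2 lower, with a median of 0.09. MTAP, which salvages methylthioadenosine, a by-product of polyamine synthesis, read 8.12, 8.29 and 8.01 in treated 5637 and 4.58, 4.80 and 5.01 in treated RT112, where the untreated mean was 4.39. The difference was 3.35 ± 0.14 (adjusted p = 0.000123). NT5E, the ectonucleotidase CD73 that makes adenosine, differed by 2.33 ± 0.06 and the thymidylate synthase gene TYMS by 1.21 ± 0.01, while the transaminase gene GOT1 differed by -1.48 ± 0.11.

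Immune genes differed by branch. The NF-kB and innate signalling list had 5 of 23 called higher, 1 lower and a median of 0.10, and the cytokine and chemokine list 8 of 40 called higher, 0 lower (2 lower at an adjusted p under 0.05 alone) and a median of 0.08. NF-kB is the family of factors that cytokine and pattern receptors turn on, and NFKBIA and TNFAIP3 encode its feedback inhibitors. C3, the central complement component, read 13.72, 13.75 and 13.74 in treated 5637 and 8.98 in every array of treated RT112 (4.76 ± 0.01, adjusted p = 1.18e-07). The adaptor kinase gene IRAK2 read 13.73, 14.04 and 13.84 against 10.33 in every array (3.54 ± 0.08). TNFAIP3 read 12.13, 12.21 and 12.14 against 8.98, 9.08 and 9.08 (3.11 ± 0.04), and NFKBIA was higher by 1.19 ± 0.07. The subunit genes RELA and NFKB1 did not differ by 2-fold (0.24 and 0.03).

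The cytokine genes called higher were led by IL23A, a subunit of interleukin-23, which read 10.33, 10.27 and 10.85 in treated 5637 and 6.65, 6.34 and 6.65 in treated RT112, against 4.74 in untreated RT112 (3.94 ± 0.19, adjusted p = 0.000202). TGFB2, for a transforming growth factor, read 10.27, 10.28 and 10.14 against 6.71, 6.37 and 6.14 (3.82 ± 0.16). The interleukin-1 genes IL1B and IL1A differed by 2.44 ± 0.11 and 2.29 ± 0.11, each with equal values in the 3 RT112 arrays. IL6 read 7.78, 7.85 and 7.85 against 5.84, 6.08 and 5.98 (1.86 ± 0.07, adjusted p = 9.56e-05), and CCL20, a chemokine for CCR6-bearing lymphocytes, was higher by 1.84 ± 0.14. The neutrophil chemokine gene CXCL8 and the growth factor gene CSF3 were higher by less than 2-fold (0.60 ± 0.03 and 0.67 ± 0.10). The T-cell chemokine gene CXCL10 was not called either, with a difference of -0.76.

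**Figure D4:**
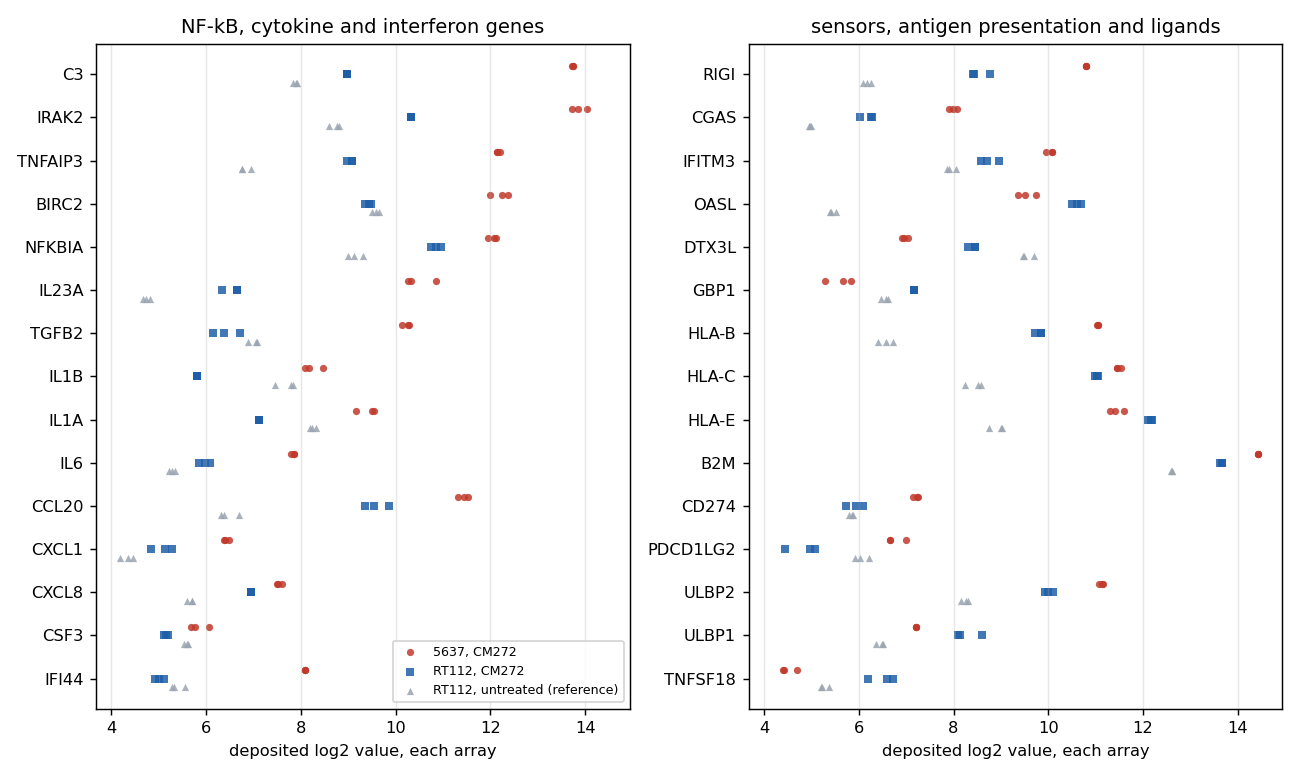
The deposited log2 level in each array is plotted for 30 immune genes, with red circles for treated 5637, blue squares for treated RT112 and grey triangles for untreated RT112. C3, IRAK2, TNFAIP3, IL23A and TGFB2 lie more than 3 log2 units higher in treated 5637, while HLA-C, HLA-E and B2M lie within 1 unit between the treated lines.

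Interferon-stimulated genes did not share a direction, with 7 of 45 called higher, 5 lower and a median of -0.01. Higher in treated 5637 were IFI44 (8.08 in every array against 5.00, 4.92 and 5.12; 3.07 ± 0.05) and the nucleic acid sensor genes RIGI (2.26 ± 0.10) and CGAS (1.80 ± 0.09), whose products detect viral RNA and cytosolic DNA. Lower were the GTPase gene GBP1 (-1.57 ± 0.15), DTX3L (-1.43 ± 0.06) and OAS3 (-1.28 ± 0.04). OASL, beyond the 8 greatest and chosen after its values were seen, read 9.36, 9.51 and 9.75 against 10.61, 10.49 and 10.69, with 5.44 in untreated RT112 (-1.06 ± 0.12).

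Antigen presentation genes differed by less than 2-fold with 1 exception. Of 21 class I genes, 9 were higher and 10 lower at an adjusted p under 0.05 alone, and HLA-B was the only one called, at 11.03, 11.04 and 11.04 in treated 5637 and 9.71, 9.85 and 9.85 in treated RT112 (1.23 ± 0.04, adjusted p = 8.46e-05). HLA genes vary between individuals and resemble each other, so probe match can differ between lines. Its reference level in untreated RT112 was 6.57. The light chain gene B2M read 14.43 in every array against 13.66, 13.67 and 13.63, a difference of 0.78 ± 0.02 below the 2-fold minimum, and the peptide transporter gene TAP1 differed by -0.37. Of 10 class II genes limma called 0, with 1 higher and 1 lower at an adjusted p under 0.05 alone, and the highest class II group mean was 5.54.

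Ligands for T cells and natural killer cells gave 4 of 30 called higher, 2 lower and a median of -0.11. The genes for both ligands of PD-1 were higher in treated 5637: CD274 read 7.26, 7.22 and 7.14 against 6.08, 5.73 and 5.95 (1.29 ± 0.10, adjusted p = 0.000703) and PDCD1LG2 read 6.66, 6.99 and 6.66 against 4.96, 5.07 and 4.44 (1.95 ± 0.21). The NKG2D ligand genes ULBP2 and RAET1L were higher by 1.11 ± 0.05 and 1.51 ± 0.11, and ULBP1 lower (-1.07 ± 0.15; -0.91 without RT112 replicate 1). TNFSF18, for the ligand of GITR, was lower (-2.0 ± 0.17). Of 12 death receptor genes 2 were called higher and 1 lower, with a median of 0.21: TNFRSF10D, a decoy receptor for TRAIL without a working death domain, read 11.61, 11.75 and 11.24 against 4.58, 4.49 and 4.64 (6.97 ± 0.14, adjusted p = 2.65e-05), while the signalling receptors TNFRSF10A and TNFRSF10B differed by 0.40 and 0.29.

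Growth factor and receptor genes had 9 of 36 called higher, 3 lower and a median of 0.06. Besides EGFR and AXL, the insulin-like growth factor receptor gene IGF1R read 11, 11.03 and 10.82 against 8.54 in every RT112 array (2.40 ± 0.06), the EGFR ligand gene EREG was higher by at least 2.53 ± 0.06, IGFBP7 by 2.88 ± 0.10 and MET, the receptor of hepatocyte growth factor, by 1.45 ± 0.06. FGFR3, a receptor gene typical of luminal papillary tumours, was lower: it read 5.41, 5.35 and 5.35 against 7.59, 7.72 and 7.78 (-2.33 ± 0.05, adjusted p = 3.28e-05). TACC3, its neighbour and known fusion partner in bladder cancer, was lower by less than 2-fold (-0.84 ± 0.07).

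Genes of the G1 phase of the cell cycle had 5 of 23 called higher, 3 lower and a median of 0.03. In this phase the retinoblastoma protein holds E2F factors back until cyclin-dependent kinases release them. RB1, which encodes it, read 5.77, 5.75 and 5.31 in treated 5637 and 8.23 in every array of treated RT112 (-2.63 ± 0.14, adjusted p = 0.000242). E2F3 read 12.90, 13.07 and 12.98 against 7.73, 7.52 and 7.37 (5.44 ± 0.10, adjusted p = 2.19e-05). CDK6, CCND1 and CCNE1 were higher, by 1.83 ± 0.10, 1.49 ± 0.08 and 1.44 ± 0.14. Of the kinase inhibitors at the 9p21 locus, CDKN2B was higher (2.71 ± 0.17), and CDKN2A read 6.91 in every array against 5.79, 6.01 and 6.06, a difference of 0.96 ± 0.08 that was just short of 2-fold and reached it with centred arrays (1.00).

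None of the genes for the enzymes that CM272 acts on differed by 2-fold between the treated lines. The G9a gene EHMT2 read 6.67, 6.74 and 6.65 against 6.44, 6.35 and 6.46 (0.27 ± 0.04, adjusted p = 0.00677) and its partner EHMT1 differed by 0.36 ± 0.05. The maintenance methyltransferase gene DNMT1 read 10.29 in every array of treated 5637 and 10.29, 10.25 and 10.29 in treated RT112 (0.01 ± 0.02, adjusted p = 0.595). DNMT3A differed by 0.93 ± 0.02 and DNMT3B by -0.17 ± 0.09. Over the list of these enzymes and their partners 2 of 24 were called higher, TET1, which oxidises methylcytosine (2.31 ± 0.09), and UHRF1, which guides DNMT1 (1.35 ± 0.09), and 1 lower, the corepressor gene TRIM28 (-1.09 ± 0.06), with a median of 0.08.

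Called genes lay together in several stretches of the genome, which were picked after their values were seen. DNA copy number was not measured. On chromosome 6, a run of 5 neighbours, E2F3, E2F3-IT1, CDKAL1, SOX4 and CASC15, was higher in treated 5637 by 4.20 to 6.65. CDKAL1, for an enzyme that modifies transfer RNA, read 14, 14.15 and 13.77 against 7.73, 7.10 and 7.40, and the long noncoding RNA gene CASC15 read 11.52, 11.31 and 10.88 against 4.77, 4.51 and 4.48. MBOAT1, the measured neighbour before E2F3, was lower (-1.12 ± 0.13), a call not kept in every setting. ID4 before it differed by 0.01, at low levels of 4.61 in treated 5637 and 4.60 in treated RT112. After the run, NBAT1 differed by 0.10, at 4.83 and 4.73. PRL, next to NBAT1, was near background in both lines (-0.11). Genes at such low levels cannot show where the run ended after CASC15. The gene list for that neighbourhood holds 19 measured protein-coding genes, without E2F3-IT1 and CASC15: 3 were called higher and 3 lower, with a median of -0.11.

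In other stretches called genes stood among neighbours that were not called or went the other way. On chromosome 3, THUMPD3, SETD5, MTMR14, BRPF1 and OGG1 were higher by 2.17 to 3.31, and EMC3, BRK1, VHL, IRAK2 and SEC13 by 1.09 to 3.54. Next before THUMPD3 in gene order, the noncoding gene SRGAP3-AS4 was called higher (1.34), and SRGAP3 before it was not called (0.51). BHLHE40 and EDEM1, called lower (-1.49 and -1.14), lay farther off, with other measured genes between them and THUMPD3. On chromosome 9, MTAP, CDKN2B and ELAVL2 were higher by 3.35, 2.71 and 1.92. The flanking interferon gene IFNE, near background in RT112, was higher by at least 1.17. CDKN2A and DMRTA1 among them were not called (0.96 and 0.61). DMRTA1 was dim, at 4.57 in treated 5637 and 3.96, near background, in treated RT112. On chromosome 17, FLII, FBXW10, PRPSAP2, GRAP, GRAPL and ALDH3A2 were lower by differences of -2.27 to -4.34. Among them SMCR8, SHMT1, B9D1 and MAPK7 were also called lower (-2.02, -1.54, -1.46 and -1.05). MIEF2, TOP3A and FAM83G were not called (-0.23, -0.71 and -0.59), nor was FOXO3B, which was higher by 0.55. GRAP and GRAPL, close copies, were near background in 5637 and also stood low in untreated RT112, at 4.49 and 3.89, against 7.81 and 8.49 in treated RT112. In windows of 9 consecutive protein-coding genes, each at least 1 log2 unit above the array median in a line, 158 of 8982 had a median of at least 1 and 66 a median of -1 or less, and neighbouring windows share genes. By whole chromosome, 38 of 241 protein-coding genes on chromosome 18 were called higher and 1 lower, and on chromosome 16, 5 of 717 were called higher and 64 lower, against 4.59% higher and 3.38% lower over all protein-coding genes.

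**Figure D5:**
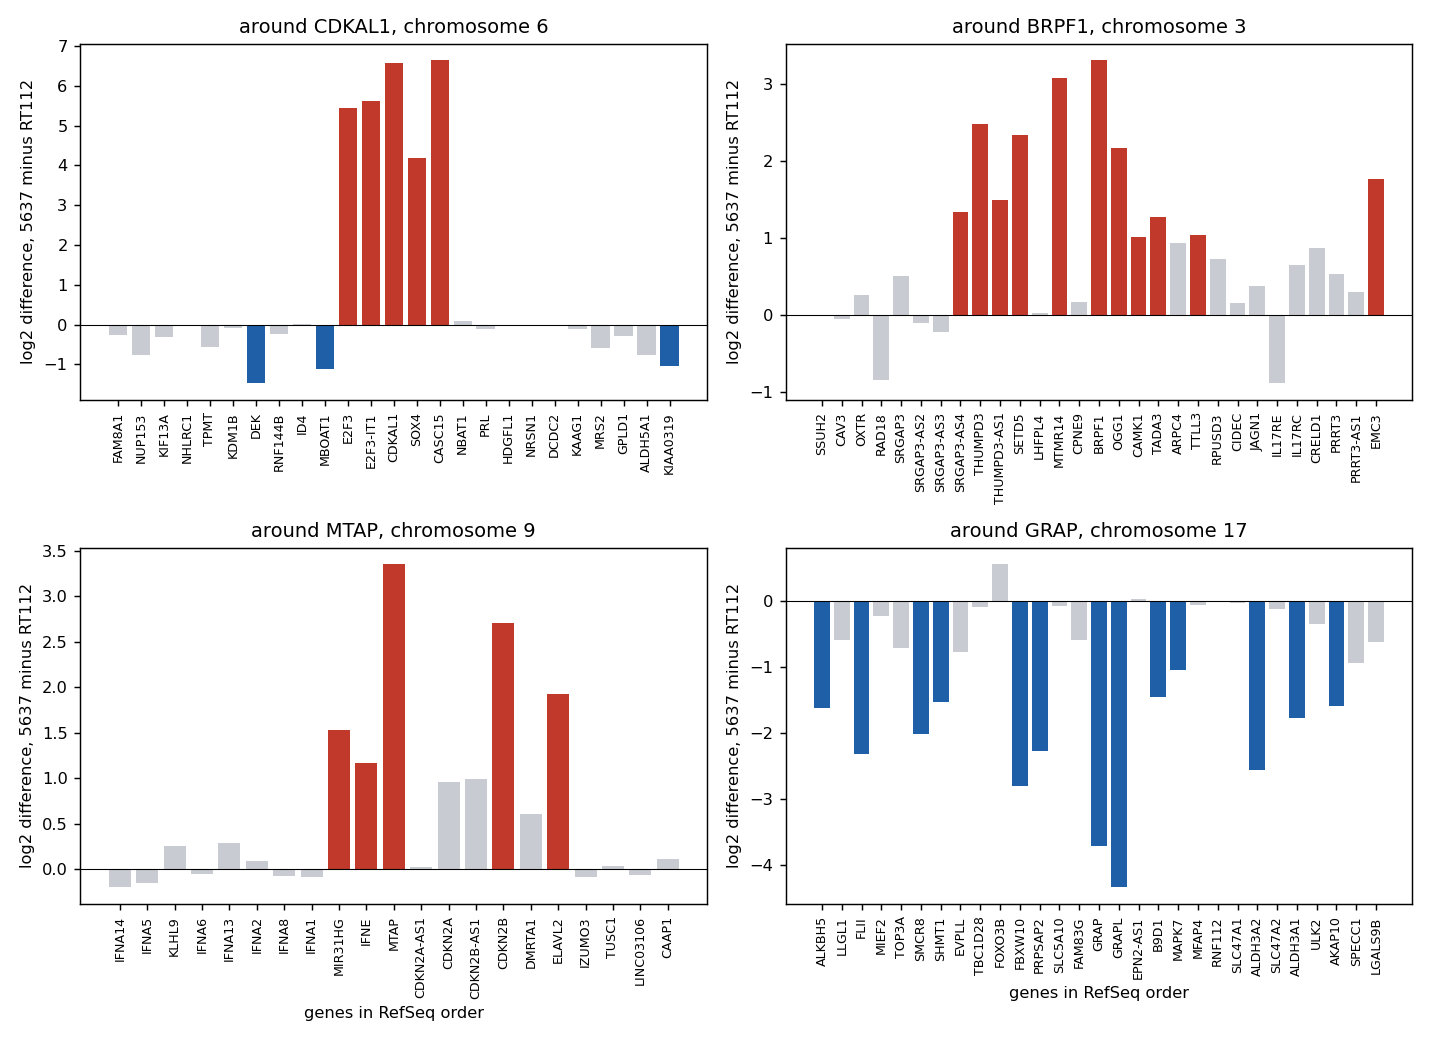
Bars give the log2 difference, treated 5637 minus treated RT112, of measured genes in their RefSeq order around CDKAL1, BRPF1, MTAP and GRAP, with red for called higher, blue for called lower and grey for not called. The 5 genes from E2F3 to CASC15 stand between 4.20 and 6.65, and MBOAT1 before them at -1.12.

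Of 1041 miRNA genes, 33 were called higher in treated 5637 (3.17%) and 5 lower (0.48%), and 34 of these 38 had an entry in the RefSeq miRNA table. A miRNA silences messages that pair with its seed, bases 2 to 8, and genes that share a seed can share targets. These rows read precursor or host transcripts, not the mature miRNA. Called genes shared 5 seeds, and mature sequences are shown for 3 of these with the seed in capitals. The repeat-derived miR-548 family and the 3p arms of miR-181b are not shown.
hsa-miR-181a-5p: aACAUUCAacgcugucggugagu
hsa-miR-181b-5p: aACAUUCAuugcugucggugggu
hsa-miR-21-5p: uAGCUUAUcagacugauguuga
hsa-miR-590-5p: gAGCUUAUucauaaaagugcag
hsa-miR-25-3p: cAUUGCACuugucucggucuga
hsa-miR-32-5p: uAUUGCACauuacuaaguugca

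The 3 called genes of the ACAUUCA seed were MIR181B2, MIR181A2 and MIR181B1, at chromosomes 9, 9 and 1. MIR181B2 read 8.46, 7.86 and 7.22 in treated 5637 and 4.37, 4.20 and 4.84 in treated RT112 (3.37 ± 0.37, adjusted p = 0.00242), and its host gene MIR181A2HG was higher too (3.18 ± 0.21). MIR181A2 and MIR181B1 were higher by at least 1.46 ± 0.28 and by 1.35 ± 0.31. MIR21, known from many carcinomas, read 10.18, 10.72 and 9.60 against 8.21, 8.46 and 8.48 (1.78 ± 0.31, adjusted p = 0.0111), and MIR590, with the same seed, was higher by 1.69 ± 0.07. MIR25 and MIR32 share the AUUGCAC seed and differed by 1.34 ± 0.19 and 1.51 ± 0.28. These 7 genes were chosen after their values were seen. Their arrays did not overlap between the lines, which also held for all 1542 called genes and for 21.3% of all genes in the higher direction.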

How the data were processed

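Total RNA was measured on Affymetrix whole-transcript arrays. The deposited table has 70523 rows of log2 values. According to the submitters' processing notes, the authors computed them by RMA with Affymetrix Expression Console; versions and genome build are not given in the sources used here. Array maxima were 19.8 to 19.9, and whether a further transformation set this scale is unknown, so differences and folds are those of the deposited scale. GEO's platform annotation gave 1 symbol for 23781 rows, several for 1543 and none for 45199; for 528 genes with several rows the brightest was taken. RefSeq (GRCh38.p14) held 22407 of 22411 genes.

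limma 3.58.1 in R 4.3.3 (lmFit, eBayes, two-sided, Benjamini-Hochberg over all genes) compared 3 with 3 arrays, with 4 residual degrees of freedom and no covariate. The procedure was tested on simulated data. The number of arrays limits the precision. Named were the 15 highest and 15 lowest called protein-coding genes that reached 2 log2 units above the array median and whose groups did not overlap. Up to 8 called genes per list by size and a set of defining genes were named too. Other named genes were chosen after their values were seen, also where this is not repeated. Members and lists were chosen with earlier results of these data known. The alternatives were other scalings, fits, filters and thresholds, and leaving out each array. The 3 untreated 5637 columns entered no comparison of genes.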

Additional observations from a re-analysis of the deposited data

How the results depend on the processing

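With the adjusted p alone and no 2-fold minimum, 3638 genes were higher and 3389 lower, and with a 4-fold minimum 223 and 135, as these thresholds imply. All other settings kept both counts within 1.5 times of 907 and 635: 973 and 596 with centred arrays, 875 and 655 after quantile normalization, 922 and 636 with the untreated RT112 arrays in the fit, 907 and 635 with an intensity trend and robust variances, 901 and 613 without dim genes, 798 and 545 without genes that had equal replicates, and 898 and 628 with the mean over rows. Leaving out 1 array at a time gave 833 to 907 higher and 604 to 653 lower. The replicate numbers did not pair the arrays (r of same-numbered deviations 0.022, -0.063 and 0.039), and the replicate block gave 867 and 617. Of 153 called genes named by the rule, 142 kept their call wherever they were fitted and 11 lost it in at least 1 setting, and 0 reversed. Those 11 were COL1A2, CTH, DHCR7, FOXA1, KIAA0319, KRT19, MBOAT1, SNAI1, SPRR2A, TNFRSF11B and ULBP1. CDKN2A reached 2-fold with centred arrays and without RT112 replicate 3. Genes with equal replicates, left out in 1 setting, include MMP1, C3, SPP1 and RB1, which then have no value. Levels near the array median limit how large a difference can be read.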

Other observations

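Several genes outside the lists, chosen after their values were seen, also set the treated lines apart. CXCR4, a chemokine receptor gene, read 13.79, 13.99 and 14.02 in treated 5637 and 10.07, 9.83 and 9.93 in treated RT112, a difference of 3.99 ± 0.09 (SE, adjusted p = 3.2e-05, limma), and untreated RT112 read 5.20, 5.29 and 4.83. PTGS2, which encodes the prostaglandin synthase COX-2, read 10.25, 10.53 and 10.33 against 6.70 in every RT112 array (3.67 ± 0.08). INHBA, for an activin subunit, TGM2, for tissue transglutaminase, and EFEMP1, for a fibulin, were higher by 3.81 ± 0.08, 4.12 ± 0.09 and 3.44 ± 0.08.

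In the other direction, the ferritin light chain gene FTL read 14.90, 15.14 and 15.03 in treated 5637 and 18.22 in every array of treated RT112 (-3.19 ± 0.06, adjusted p = 2.58e-05), and GSR, for glutathione reductase, read 6.57, 6.72 and 6.59 against 10.38, 10.40 and 10.30 (-3.73 ± 0.05). TRIM16 and TRIM16L, close copies whose signal may be shared, differed by -3.53 ± 0.23 and -3.62 ± 0.15. CSTA, for cystatin A, and PADI3, for a peptidylarginine deiminase, both known from the outer layers of stratified epithelia, differed by -3.34 ± 0.07 and -4.51 ± 0.15. The proprotein convertase gene FURIN differed by -3.26 ± 0.09, and treated RT112 (11.13, 11.13 and 10.97) stood above untreated RT112 (8.84, 8.97 and 9.11).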
